A study of Mus musculus with 22 samples.

Results

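Gene expression was compared between MCL-like and non-MCL lymphomas that arose in mice of the same genotype, R26-Ccnd2tg/tg;p53fl/fl;Mb1Cretg/+. The 2 groups were formed from the submitters' immunophenotype label alone. They hold 4 MCL-like and 3 non-MCL primary tumours, each from a different mouse and each 1 library, so 7 of the 22 libraries of the series were used. All 7 mice carried a cyclin D2 (Ccnd2) transgene on both alleles of the Rosa26 locus and floxed p53 (Trp53) alleles. Cre recombinase was expressed from Mb1 (Cd79a), a gene of the B lineage that is already active in early B cell precursors, so Cre acts long before a B cell matures. The background was a mixed 129/C57Bl6 strain. MCL-like mouse 1 was sampled at a mesenteric lymphoma and non-MCL mouse 1 at a mediastinal lymphoma, and the other 5 tumours were taken from the spleen. RNA came from fresh lymphoma cells. Not given in the sources used here were the criteria behind the immunophenotype label and the ages of the mice. Values are listed below in the order of MCL-like mice 1 to 4 and non-MCL mice 1 to 3.

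Mantle cell lymphoma is a tumour of mature B cells in which a D-type cyclin is expressed at a high level, usually together with CD5, a surface protein that is also found on B1a cells. B1 cells are a self-renewing B cell population that is formed early in life. A B cell precursor cuts and joins its immunoglobulin genes with the Rag1 and Rag2 recombinase and shows the new heavy chain together with a surrogate light chain, made of the Vpreb and Igll1 proteins, as the pre-B cell receptor. Once a light chain has been made, these genes are shut off. A mature B cell then shows peptides to helper T cells on MHC class II molecules, and signals from its antigen receptor reach NF-kB through Malt1 and its partner Bcl10.

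The 7 libraries held 2693399 to 8146613 counts, and the deepest was that of non-MCL mouse 3. Levels are counts relative to a common library total, scaled by the trimmed mean of M values (TMM) and written CPM, and a fold change is on the log2 scale, MCL-like over non-MCL. Because the library kit reads from the 3' end of each messenger RNA, a level is not corrected for length and was compared only within a gene. Ccnd2 was measured at 1415, 1959, 2277 and 1724 CPM in the MCL-like mice and 1908, 533 and 411 in the non-MCL mice. Its difference did not pass the test (log2 fold change 0.96, SE 0.55, adjusted p = 0.418), and non-MCL mouse 1 was at the level of the MCL-like mice. Counts are given per gene, so Ccnd2 RNA of the transgene and of the endogenous gene was not told apart. Trp53 was at 4.28, 5.28, 13.2 and 2.86 CPM in the MCL-like mice and 5.08, 3.17 and 11.4 in the non-MCL mice, with full overlap. Where the 3' tags lie relative to the floxed exons is not stated, so this level checks no deletion. The B cell genes Cd79b (618 to 784 CPM in the MCL-like and 312 to 1028 in the non-MCL mice) and Pax5 (223 to 619 CPM in the MCL-like and 389 to 699 in the non-MCL mice) were found in all 7 tumours, whereas Cd79a, whose locus drives Cre, was low in both groups (7.46 to 17.6 CPM in the MCL-like and 8.71 to 13.5 in the non-MCL mice). Sox11, a factor of most human mantle cell lymphomas, had no count in the MCL-like mice, and non-MCL mouse 1 alone had any (0.363 CPM). Cd5 was at 56.3, 40.7, 25.8 and 26.9 CPM in the MCL-like mice and 0, 0.576 and 35.7 in the non-MCL mice. Non-MCL mouse 3 lay within the range of the MCL-like mice for Cd5, and the difference did not pass the test (log2 fold change 1.57, SE 1.25, adjusted p = 0.574). T cell markers, given below, also summed to higher levels in the MCL-like mice. The part of T cell RNA in the Cd5 values was not tested.

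Of 52636 gene identifiers, 11807 passed the low-count filter and were tested. The edgeR quasi-likelihood test with Benjamini-Hochberg adjustment called 371 of them at an adjusted p under 0.05, which is 3.14%. That share is the background for the counts of called members in each gene list below. In the MCL-like tumours 143 genes were called higher (1.21% of those tested) and 228 lower (1.93%). All 371 separated the 4 from the 3 mice without overlap, as did 16.5% of all tested genes, 8.22% with the MCL-like mice higher and 8.27% with them lower. Among called genes 332 were protein coding. The median log2 fold change was 2.78 for the genes called higher and -3.51 for those called lower, against 0.0024 over all tested genes. Some called-lower genes were nearly silent in the MCL-like tumours: 63 of the 228 had a mean under 1 CPM there, whereas 13 of the 143 called-higher genes had a mean under 1 CPM in the non-MCL tumours. A gene this low in 1 group passed the low-count filter mainly through its level in the other group. The share of all tested genes under 1 CPM was not computed, so these counts have no background. When the 6 mice with floxed p53 and no Ccnd2 transgene (p53-only mice) joined the fit, the counts fell to 8 higher and 32 lower, and all 40 were among the 371. No call reversed its direction in any of the 18 alternative settings. That outcome was nearly fixed in advance, because the groups did not overlap for any called gene, so it is no measure of stability.

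**Figure D1:**
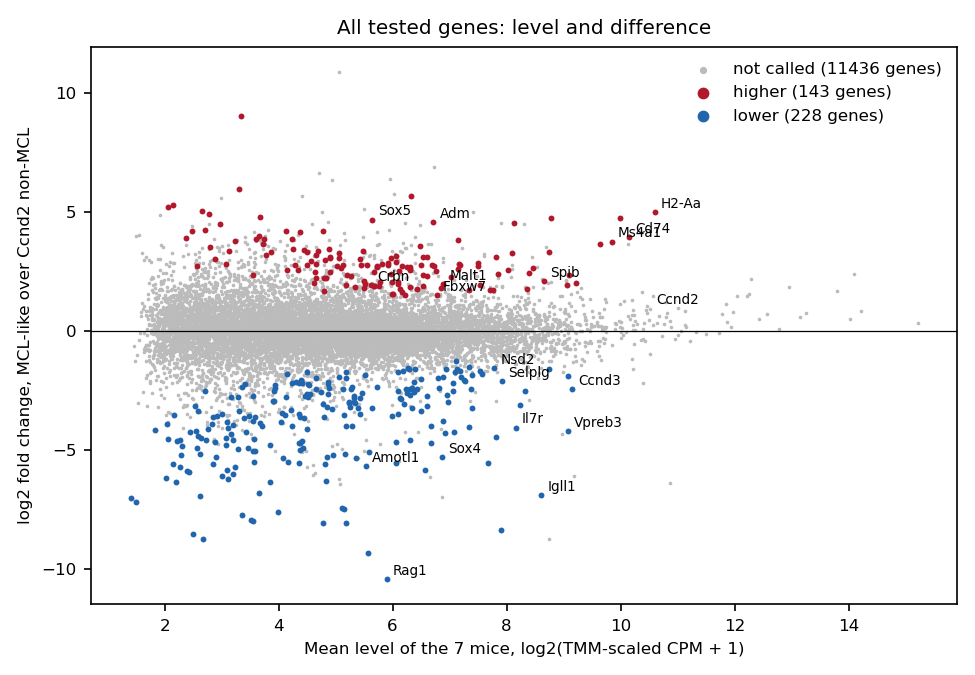
Log2 fold change (y axis, MCL-like over non-MCL) against the mean level of the 7 mice (x axis, log2 of CPM plus 1) for the 11807 tested genes. Red points are the 143 genes called higher, blue points the 228 called lower and grey points are the other tested genes, and genes with a label are described in the text.

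Most genes differed by less than 2-fold, and few of the moderate differences were called. None of the 8823 tested genes under 2-fold was called. Between 2-fold and 4-fold, 25 genes were called higher and 27 lower among 2005 tested, or 2.59%. The share called was 22.1% of 561 genes between 4-fold and 8-fold, 35.0% of 240 genes between 8-fold and 16-fold, 57.1% of 91 genes between 16-fold and 32-fold, and 67.8% of 87 genes at 32-fold or more. In that last band 7 genes were called higher and 52 lower. The share called also followed the level in the higher group: it was 1.15% under 10 CPM and 5.92% at 300 CPM or more, where the median standard error (SE) of a log2 fold change was 0.44 instead of 0.73. At an unadjusted p under 0.05 there were 2168 genes.

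**Figure D2:**
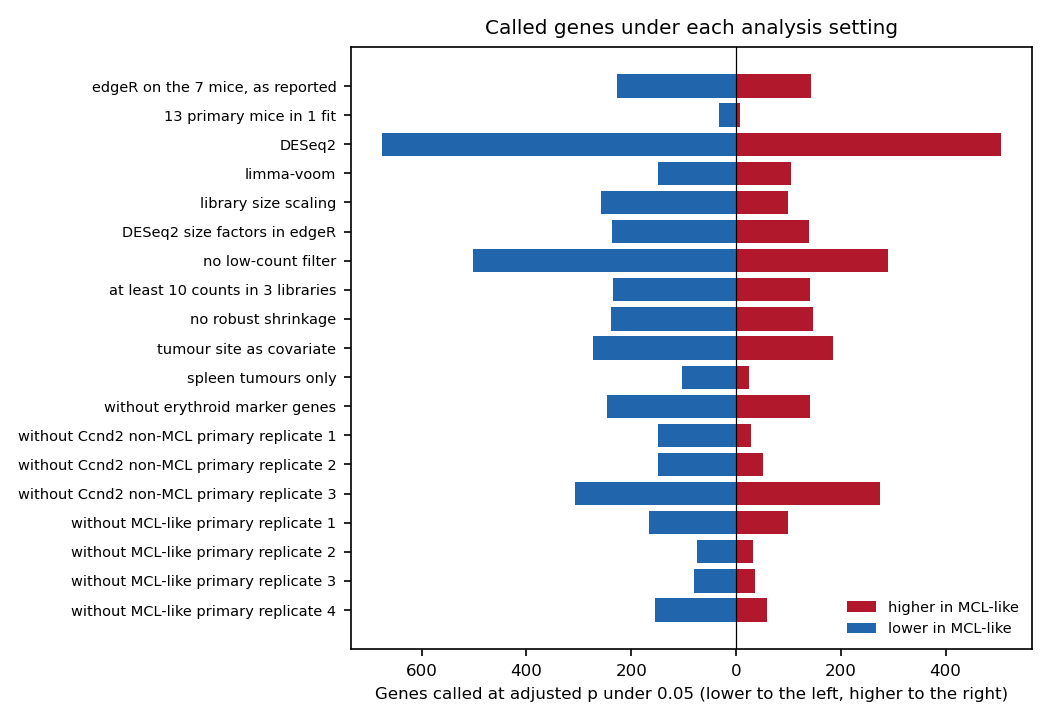
Number of genes called at an adjusted p under 0.05 (x axis, lower to the left in blue, higher to the right in red) in the fit as reported and under 18 alternative settings (y axis). The counts run from 8 higher and 32 lower with the p53-only mice in the fit to 506 higher and 676 lower with DESeq2.

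The MCL-like libraries were closer to each other than the non-MCL libraries were, as a description without a test. Over the tested genes, log2 levels correlated at 0.846 to 0.919 between MCL-like mice, at 0.785 to 0.828 between non-MCL mice and at 0.695 to 0.810 across the groups. These correlations are across genes, which are not independent replicates. The median SD of a gene's log2 level was 0.489 within the MCL-like group and 0.661 within the non-MCL group, and 11.4% against 24.0% of genes had an SD over 1.

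Genes of the pre-B cell receptor and of immunoglobulin gene recombination had the lowest median of the 35 lists of B cell and general functions. Of 9 tested members 4 fell and none rose, with a median log2 fold change of -5.56. Rag1, a subunit of the recombinase, was at 0, 0, 0.339 and 0 CPM in the MCL-like mice and 165, 196 and 48.7 in the non-MCL mice. The 4 MCL-like libraries held 1 Rag1 count together, and the 3 non-MCL libraries held 1571, a ratio of 1483 with a 95% counting interval of 265.8 to 58610 (the fitted log2 fold change -10.40, SE 0.88, adjusted p = 0.0021). That interval covers the counting of pooled reads only and leaves out the spread between mice. Rag2, the other subunit, was at 0, 0, 0 and 0.953 CPM in the MCL-like mice and 20.7, 12.1 and 9.41 in the non-MCL mice (log2 fold change -5.56, SE 1.02, adjusted p = 0.0213). Vpreb3, which is expressed with the pre-B cell receptor chains, was at 114, 38.4, 54.9 and 46.5 CPM in the MCL-like mice and 1372, 1223 and 926 in the non-MCL mice, a mean of 63.5 ± 34.6 (SD, n = 4) against 1174 ± 227 (SD, n = 3; log2 fold change -4.21, SE 0.47, adjusted p = 0.00649). The lowest non-MCL mouse was far above the highest MCL-like mouse for Vpreb3. Igll1, the constant part of the surrogate light chain, was at 0.356, 0.919, 1.02 and 26.9 CPM in the MCL-like mice and 1192, 1132 and 359.7 in the non-MCL mice (log2 fold change -6.89, SE 1.37, adjusted p = 0.0338).

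MCL-like mouse 4 stood apart from its group for the surrogate light chain. Vpreb1, the variable part of that chain, was at 1.07, 1.84, 2.03 and 199 CPM in the MCL-like mice and 5111, 5464 and 2213 in the non-MCL mice: mouse 4 held almost all of the signal of its group but remained far below the lowest non-MCL mouse. With it, Vpreb1 did not pass the test (log2 fold change -6.38, SE 1.80, adjusted p = 0.0965), and without it the list had 5 members called lower. Vpreb2, a near-identical copy whose reads may be shared with Vpreb1, was at 0, 0, 0 and 3.58 CPM in the MCL-like mice and 208, 11.8 and 2.02 in the non-MCL mice, and there the groups overlapped. In bulk tumour RNA, fewer cells that express a gene and less RNA per cell cannot be told apart. With the p53-only mice in the fit, 1 member of the list was called lower, and 2 were without non-MCL mouse 1, MCL-like mouse 2 or MCL-like mouse 3.

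Regulators and receptors of early B cells formed the other large lower group. Of 20 tested members 7 fell and none rose, and the median was -2.25. Il7r, the receptor chain for the growth factor IL-7 of B cell precursors, was at 12.5, 24.8, 58.3 and 52.9 CPM in the MCL-like mice and 532, 1009.9 and 301 in the non-MCL mice (log2 fold change -4.05, SE 0.61, adjusted p = 0.012). Sox4, a transcription factor of pro-B cells, was at 7.13, 1.38, 2.03 and 15.97 CPM in the MCL-like mice and 226, 285 and 271 in the non-MCL mice (log2 fold change -5.28, SE 0.75, adjusted p = 0.0103). The non-MCL mice differed little from each other for Sox4, and each was far above every MCL-like mouse. Erg, an ETS factor of stem and progenitor cells, was at 0, 0, 1.02 and 0.477 CPM in the MCL-like mice and 27.6, 52.7 and 12.4 in the non-MCL mice (log2 fold change -6.31, SE 0.94, adjusted p = 0.0118). Bst1, an ectoenzyme also known as BP-3 that marks B cell precursors, was at 6.41, 0.689, 0.678 and 1.43 CPM in the MCL-like mice and 94.3, 114 and 61.7 in the non-MCL mice (log2 fold change -5.33, SE 0.74, adjusted p = 0.00864).

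Socs2, an inhibitor that cytokine signals induce through STAT5, was at 3.56, 22.5, 13.2 and 15.02 CPM in the MCL-like mice and 519.5, 134 and 131 in the non-MCL mice (log2 fold change -4.25, SE 0.68, adjusted p = 0.0148). Cd93, a surface marker of immature B cells, was at 6.77, 15.8, 5.08 and 63.6 CPM in the MCL-like mice and 390.4, 789 and 304 in the non-MCL mice, and again MCL-like mouse 4 was the highest of its group (log2 fold change -4.42, SE 0.86, adjusted p = 0.0305). Lef1, a nuclear partner of Wnt signals in pro-B cells, was at 13.9, 54.2, 14.2 and 35.5 CPM in the MCL-like mice and 150.2, 222 and 108 in the non-MCL mice (log2 fold change -2.43, SE 0.53, adjusted p = 0.0373). Ebf1, a factor that specifies the B lineage, was also without overlap but did not pass the test (log2 fold change -2.17, SE 0.68, adjusted p = 0.12), and MCL-like mice 1 and 2, at 118 and 216 CPM, lay well below mice 3 and 4, at 860.1 and 956. Myb and Bach2 were lower without overlap and did not pass either (log2 fold changes -1.75 and -2.49, adjusted p = 0.149 and 0.0886), whereas Foxo1 and Tcf3, which act in the same cells, differed by -0.19 and -0.25 and overlapped. With the p53-only mice in the fit, no member of the list was called, while DESeq2 called 12 lower.

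**Figure D3:**
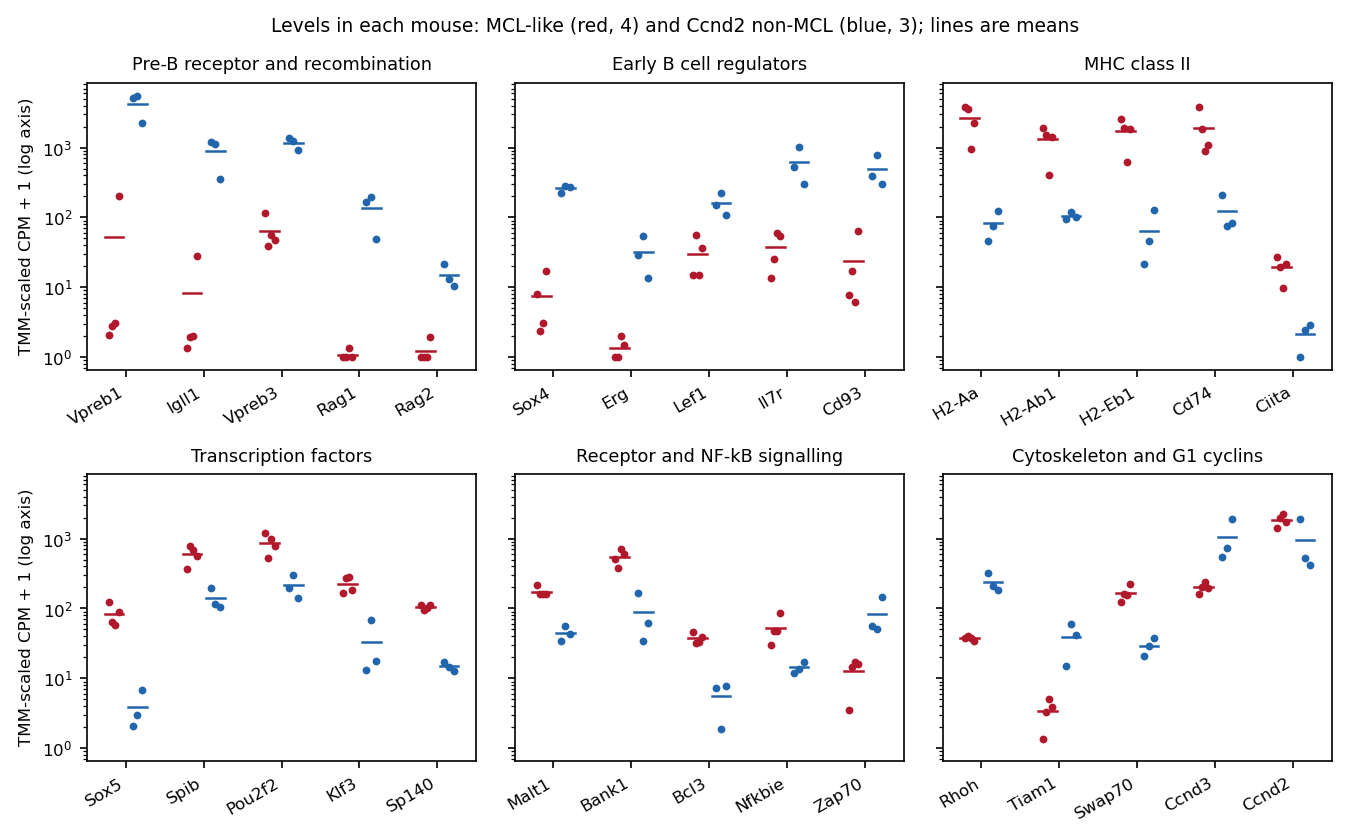
Level of 30 genes in each of the 7 mice (y axis, CPM plus 1 on a log axis; x axis, genes) in 6 groups by function. Points are mice, red for MCL-like and blue for non-MCL, and lines are group means; Vpreb1, Igll1 and Cd93 show MCL-like mouse 4 above its group, and Ccnd2 shows 1 non-MCL mouse at the MCL-like level.

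MHC class II genes had the highest median of these 35 lists. Of 16 tested members 9 rose and none fell, all 16 had a positive log2 fold change, and the median was 2.56. The chains of the peptide-binding molecules were H2-Aa at 3862, 3523, 952 and 2278 CPM in the MCL-like mice and 45.3, 75.1 and 123 in the non-MCL mice (log2 fold change 5.03, SE 0.67, adjusted p = 0.0072), a mean of 2654 ± 1323 (SD, n = 4) against 81.2 ± 39.3 (SD, n = 3). H2-Ab1, its partner chain, was at 1934, 1508, 409 and 1420.4 CPM in the MCL-like mice and 94.3, 117 and 99.8 in the non-MCL mice (log2 fold change 3.67, SE 0.57, adjusted p = 0.012). H2-Eb1, a beta chain of the I-E class II molecule, was at 2549, 1882, 631 and 1839 CPM in the MCL-like mice and 20.3, 45.2 and 125 in the non-MCL mice (log2 fold change 4.76, SE 0.77, adjusted p = 0.0148). MCL-like mouse 3 was the lowest of its group in 14 of the 16 genes, and it still lay above every non-MCL mouse for the 9 called genes.

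Most genes that load peptide onto the chains rose as well. Cd74, the invariant chain that guards the binding groove, was at 3754, 1855, 899 and 1093 CPM in the MCL-like mice and 208, 73.7 and 83.6 in the non-MCL mice (log2 fold change 3.96, SE 0.68, adjusted p = 0.0167). H2-DMa, which exchanges the invariant chain fragment for peptide, was at 302, 248, 122 and 261 CPM in the MCL-like mice and 23.6, 11.2 and 13.8 in the non-MCL mice (log2 fold change 3.85, SE 0.48, adjusted p = 0.00712). Its partner H2-DMb1 ranged from 60.7 to 172 CPM in the MCL-like and 8.63 to 28.1 in the non-MCL mice (log2 fold change 2.72, SE 0.53, adjusted p = 0.0264). H2-Oa, which restrains that exchange in B cells, ranged from 49.1 to 146 CPM in the MCL-like and 7.84 to 25.4 in the non-MCL mice (log2 fold change 2.40, SE 0.53, adjusted p = 0.0394), while H2-Ob, its partner chain, ranged from 64.4 to 226 CPM in the MCL-like and 58.4 to 106 in the non-MCL mice and did not pass (log2 fold change 0.42, SE 0.47, adjusted p = 0.699). Ctss, the protease cathepsin S that trims the invariant chain, was at 1594, 632, 534 and 577 CPM in the MCL-like mice and 232, 94.1 and 156 in the non-MCL mice (log2 fold change 2.38, SE 0.54, adjusted p = 0.042). H2 genes are similar in sequence, so reads may be shared among them.

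Ciita, the master coactivator of class II transcription, was at 26.4, 18.6, 8.81 and 20.7 CPM in the MCL-like mice and 0, 1.44 and 1.90 in the non-MCL mice (log2 fold change 3.90, SE 0.83, adjusted p = 0.0342), so the highest non-MCL mouse lay below the lowest MCL-like mouse. The factors that bind the class II promoter did not pass the test: log2 fold changes were 0.31 for Rfx5, 0.50 for Rfxank and 0.48 for Rfxap, with adjusted p = 0.789, 0.679 and 0.67. MHC class I genes had 15 tested members and none called, with a median of 0.76. No class II gene was called with the p53-only mice in the fit, 3 were called among spleen tumours alone, and DESeq2 called 11. There were 5 called without non-MCL mouse 1, 3 without non-MCL mouse 2 and 5 without MCL-like mouse 2. Ciita, Ctss and H2-Oa lost their call whichever MCL-like mouse was left out. Their adjusted p was then 0.05785 to 0.0802, 0.0594 to 0.07985 and 0.0559 to 0.0935.

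Class II promoters are known for a shared set of short elements that lie close to the start site, one of them the Y box, GATTGG in this orientation or CCAATC on the other strand. The 100 bases before the start site of 4 called class II genes are shown to place it, from the RefSeq promoter table for GRCm38.p6, 5' to 3' on the strand of the gene, with the Y box in capitals.
H2-Oa: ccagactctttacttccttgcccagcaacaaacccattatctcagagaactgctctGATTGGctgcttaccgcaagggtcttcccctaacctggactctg
H2-DMb1: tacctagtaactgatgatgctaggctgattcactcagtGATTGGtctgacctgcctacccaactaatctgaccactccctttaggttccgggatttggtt
H2-Aa: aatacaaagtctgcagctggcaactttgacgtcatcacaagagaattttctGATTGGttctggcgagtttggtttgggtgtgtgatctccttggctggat
H2-Eb1: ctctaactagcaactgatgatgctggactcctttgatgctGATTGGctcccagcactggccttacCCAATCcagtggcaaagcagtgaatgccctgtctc
These windows are chr17:34092279-34092378 (plus strand) for H2-Oa, chr17:34153091-34153190 (plus) for H2-DMb1, chr17:34287824-34287923 (minus) for H2-Aa and chr17:34305767-34305866 (plus) for H2-Eb1. The first base of the element lies 44, 62, 49 and 60 bases before the start, and H2-Eb1 holds another copy, on the other strand, at 35. Of 16 class II genes, 12 had a window in that table and 7 of these (58.3%) held the 6 letters on either strand, against 2833 of 32851 windows of all genes (8.62%). Of the 10 genes of the pre-B receptor and recombination list 2 held it. The E box CAGGTG, counted on both strands, was in 2 of those 10 and in 7.03% of all windows. A listed gene counted when any of its windows held the letters, whereas the shares of all windows count each window singly. A match of letters is no evidence of binding, which was not measured.

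Several cell types other than B cells express MHC class II, and their markers were compared in the same libraries. The 16 macrophage and dendritic markers summed to 903 to 1455 CPM in the MCL-like mice and 619 to 1733 in the non-MCL mice, and none of the 12 tested was called. T cell markers did differ: the 16 markers summed to 281 to 643 CPM against 49.3 to 109, without overlap, and 2 of 15 tested rose with a median of 3.07. Cd3d, a chain of the T cell receptor complex, was at 14.3, 53.1, 62.4 and 32.9 CPM in the MCL-like mice and 2.54, 3.45 and 5.49 in the non-MCL mice (log2 fold change 3.36, SE 0.60, adjusted p = 0.0191), and Trac, the receptor's alpha constant region, also rose (log2 fold change 3.45, SE 0.80, adjusted p = 0.0458). Cd3e did not pass the test (log2 fold change 3.67, SE 0.92, adjusted p = 0.0592). Of the 15 tested, 14 had a positive log2 fold change and 1 a negative one. None of the 3 markers with the highest level was called. Trbc2 overlapped (log2 fold change 3.53, adjusted p = 0.0723). For Cd28 (5.14, adjusted p = 0.103), MCL-like mouse 1 was at 254 CPM and the other MCL-like mice at 10.5 to 23.7. Lat went the other way, at 3.57 to 32.9 unscaled CPM in the MCL-like and 15.6 to 73.1 in the non-MCL mice. Without non-MCL mouse 3 there were 7 T cell markers called and without MCL-like mouse 1 there were 4, without MCL-like mouse 4 there was 1, and none was called without non-MCL mouse 1 or 2 or MCL-like mouse 2 or 3 or with the p53-only mice in the fit. The NK cell markers summed to 55.6 to 327 CPM against 15.2 to 137, and Eomes, a factor of NK and T cells, was the 1 of 8 tested that rose (log2 fold change 3.82, SE 0.87, adjusted p = 0.0426). Erythroid markers reached 21196 to 121686 CPM in the MCL-like mice against 4352 to 31409, with 0 of 11 called. Neutrophil markers summed to 130 to 1068 CPM against 235 to 3987, with non-MCL mouse 3 at the top, megakaryocyte markers to 20.7 to 151 against 31.6 to 97.4, and stromal and endothelial markers to 175 to 460 against 275 to 568; none of these lists had a call. Thymic epithelial markers (6.89 to 23.9 against 11.8 to 21.9 CPM, with Krt5 at 0 in all 7 mice) and adipose and pancreas markers (6.91 to 18.5 against 4.60 to 28.7, with Amy2a5 and Lep at 0) were low. The part of the T and NK cell RNA in the receptor, adhesion and signalling results below was not tested.

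Transcription factors of mature B cells gave calls in 1 direction. Of 28 tested members 4 rose and none fell, with a median of 1.06. Sox5, a transcription factor of the SOX family, was at 122, 62.5, 57.3 and 89.4 CPM in the MCL-like mice and 1.09, 2.01 and 5.71 in the non-MCL mice (log2 fold change 4.70, SE 0.63, adjusted p = 0.0072), and the lowest MCL-like mouse was far above the highest non-MCL mouse. Spib, an ETS factor of mature B cells, was at 367, 785, 687 and 560.4 CPM in the MCL-like mice and 196, 114 and 105 in the non-MCL mice (log2 fold change 2.12, SE 0.43, adjusted p = 0.0296). Klf3, a repressor of the Kruppel-like family, was at 167, 274, 281 and 181 CPM in the MCL-like mice and 12.3, 66.5 and 16.7 in the non-MCL mice (log2 fold change 2.83, SE 0.61, adjusted p = 0.0373). Pou2f2, the octamer-binding factor Oct-2 that B1 cells need, was at 1189, 529, 999.7 and 777 CPM in the MCL-like mice and 198, 303 and 139 in the non-MCL mice (log2 fold change 2.03, SE 0.45, adjusted p = 0.0383). Sp140, a chromatin reader of immune cells and in none of the lists, had the lowest p of the genes that rose, at 113, 95.3, 102 and 110.1 CPM in the MCL-like mice and 16.3, 13.5 and 11.5 in the non-MCL mice (log2 fold change 2.93, SE 0.36, adjusted p = 0.00712). Irf4 was lower without overlap and did not pass (log2 fold change -1.02, SE 0.37, adjusted p = 0.166). No member of the list was called with the p53-only mice in the fit, 2 were without non-MCL mouse 1, 6 without non-MCL mouse 3 and 1 without MCL-like mouse 2, 3 or 4.

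Genes typical of B1 cells had positive log2 fold changes in 20 of 20 tested members, with a median of 2.07, but only 2 were called. Ptpn22, a phosphatase that dampens receptor signals, was at 213, 316, 289 and 584 CPM in the MCL-like mice and 85.3, 42.02 and 71.7 in the non-MCL mice (log2 fold change 2.40, SE 0.47, adjusted p = 0.0264). Fcrl5, an inhibitory Fc receptor-like protein of B1 and marginal zone cells, was at 16.04, 24.3, 28.5 and 109 CPM in the MCL-like mice and 1.09, 0.576 and 4.71 in the non-MCL mice (log2 fold change 4.23, SE 0.93, adjusted p = 0.0397). Bhlhe41, a transcription factor that B1a cells depend on, was at 185, 144, 194 and 150.2 CPM in the MCL-like mice and 0.726, 0 and 37.1 in the non-MCL mice: the 4 MCL-like mice were close to each other, 2 non-MCL mice were near 0 and mouse 3 was between. It did not pass the test (log2 fold change 3.67, SE 1.31, adjusted p = 0.174). Zbtb32 had the same layout, at 265, 237, 118 and 129 CPM in the MCL-like mice and 1.45, 2.88 and 69.1 in the non-MCL mice (log2 fold change 2.90, SE 1.13, adjusted p = 0.215), and so did Itgb7 and Il10, whose highest non-MCL values were 55.9 and 18.5 CPM in mouse 3.

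The number of B1 genes called depended on which mice were in the fit. Non-MCL mouse 3 was the highest of the non-MCL mice for 16 of the 20 genes, and without it 10 of the 20 were called higher. Calls rose over all genes as well: 275 of 12350 tested genes were called higher without this mouse, against 143 of 11807 with all 7 mice. Non-MCL mouse 3 was also the highest of its group for 13 of 15 T cell markers and 7 of 8 NK cell markers, and for 16 of 22 NF-kB genes. Its library was the deepest. The part of other cells in these values was not tested. In the fit with the p53-only mice and among spleen tumours alone, no B1 gene was called, nor was any without non-MCL mouse 1 or 2 or MCL-like mouse 2 or 3, and 1 was without MCL-like mouse 4.

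Marginal zone and follicular genes followed the B1 genes, with 4 of 19 tested called higher, none lower and a median of 1.52. S1pr3, a receptor for sphingosine 1-phosphate that positions marginal zone cells, was at 32.1, 31.9, 63.03 and 82.7 CPM in the MCL-like mice and 4.72, 6.62 and 4.59 in the non-MCL mice (log2 fold change 3.30, SE 0.51, adjusted p = 0.012). Notch2, the receptor that directs marginal zone fate, was at 154, 44.6, 89.5 and 64.4 CPM in the MCL-like mice and 8.71, 6.04 and 21.5 in the non-MCL mice (log2 fold change 2.83, SE 0.60, adjusted p = 0.0333). Fcrla (96.9 to 174 CPM in the MCL-like and 12.3 to 45.9 in the non-MCL mice) and Mfhas1 (51.7 to 135 CPM in the MCL-like and 7.26 to 24.2 in the non-MCL mice) were called as well (log2 fold change 2.37, SE 0.49, adjusted p = 0.0316, and log2 fold change 2.49, SE 0.56, adjusted p = 0.0406). The Notch pathway list had 2 calls of 15 tested, Notch2 higher and Lfng lower. Lfng, a glycosyltransferase that tunes Notch receptors, was at 16.7, 25.3, 25.4 and 21.7 CPM in the MCL-like mice and 97.6, 189 and 96.5 in the non-MCL mice (log2 fold change -2.51, SE 0.38, adjusted p = 0.012) and kept its call in each of the 18 alternative settings. Fc receptors and their relatives had 2 of 9 called higher, Fcrla and Fcrl5, with a median of 2.01. Fcer2a (CD23), a follicular marker that failed the filter, was at 0, 1.84, 19.7 and 2.62 CPM in the MCL-like mice and 0, 0.576 and 1.90 in the non-MCL mice. Of the marginal zone and follicular genes 1 was called with the p53-only mice in the fit, 1 without non-MCL mouse 1 or MCL-like mouse 2, 3 or 4, 2 without non-MCL mouse 2 or MCL-like mouse 1, and 6 without non-MCL mouse 3.

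Genes of B cell receptor signalling changed in both directions. Of 26 tested members 2 rose and 1 fell, with a median of 0.52. Malt1, a protease that binds Bcl10 on the way from the receptor to NF-kB, was at 218, 159.8, 158 and 158 CPM in the MCL-like mice and 33.01, 54.97 and 41.5 in the non-MCL mice (log2 fold change 2.005, SE 0.36, adjusted p = 0.0186). Bank1, a scaffold for receptor kinases, was at 515, 379, 698 and 611 CPM in the MCL-like mice and 167, 33.7 and 61.97 in the non-MCL mice (log2 fold change 2.65, SE 0.57, adjusted p = 0.0352). Zap70, a kinase of T cells that some B cell tumours express, fell although T cell markers were higher: it was at 2.49, 13.3, 16.3 and 14.8 CPM in the MCL-like mice and 55.9, 49.2 and 144 in the non-MCL mice (log2 fold change -2.82, SE 0.61, adjusted p = 0.0373). Bcl10 was higher without overlap and did not pass (log2 fold change 1.31, SE 0.32, adjusted p = 0.0573). Ms4a1 (CD20), a surface protein that supports receptor signalling and is not in this list, also rose, at 2367, 974, 1499.5 and 1241 CPM in the MCL-like mice and 135, 33.7 and 165 in the non-MCL mice, a mean of 1521 ± 604 (SD, n = 4) against 111 ± 68.8 (SD, n = 3; log2 fold change 3.77, SE 0.63, adjusted p = 0.0154). Genes of the early response to receptor signals had 15 tested members, 0 called and a median of 0.50; at the top was the activation marker Cd83 (log2 fold change 3.32, SE 0.99, adjusted p = 0.111). In the receptor signalling list 1 gene was called higher and none lower with the p53-only mice in the fit, as without any 1 of the non-MCL mice or without MCL-like mouse 4, and none was called without MCL-like mouse 2 or 3.

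In the NF-kB list 3 of 22 tested genes rose and none fell, with a median of 0.98. All 3 are members of the IkB family, whose proteins bind NF-kB subunits. Bcl3 was at 44.9, 31.00, 31.9 and 37.4 CPM in the MCL-like mice and 6.17, 0.863 and 6.72 in the non-MCL mice (log2 fold change 2.96, SE 0.62, adjusted p = 0.0326). Nfkbid was at 53.1, 53.7, 62.4 and 94.6 CPM in the MCL-like mice and 8.71, 14.7 and 25.3 in the non-MCL mice (log2 fold change 2.01, SE 0.46, adjusted p = 0.0445). Nfkbie was at 29.2, 47.3, 46.4 and 83.9 CPM in the MCL-like mice and 10.9, 12.7 and 16.4 in the non-MCL mice (log2 fold change 1.95, SE 0.45, adjusted p = 0.0449). Among the subunits, Nfkb1, Rel, Relb and Nfkb2 were higher without overlap and did not pass (log2 fold changes 1.47, 1.43, 1.29 and 1.80, adjusted p = 0.085, 0.12, 0.155 and 0.156), and Rela was at -0.26. With library size scaling in place of TMM 1 gene of the list was called, as with limma-voom, and with the p53-only mice none. Leaving out non-MCL mouse 2 or MCL-like mouse 1 left 1 called, and leaving out non-MCL mouse 1 or MCL-like mouse 2, 3 or 4 left none.

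Receptors for other signals gave few calls. They made up 5.26% of the TNF and cytokine receptors, 7.69% of the toll-like receptor genes and 8.33% of the adhesion and homing genes tested. Of all genes 3.14% were called, so in lists of this size these shares rest on 1 or 2 genes. Il2rg, the common chain of the receptors for IL-2, IL-4, IL-7 and IL-21, was at 712, 391, 394 and 573 CPM in the MCL-like mice and 98.7, 142 and 43.7 in the non-MCL mice (log2 fold change 2.45, SE 0.49, adjusted p = 0.0275), the opposite direction to its partner Il7r; T cells also express it. It was the 1 call of 19 tested TNF and cytokine receptors, whose median was 0.99. Cd180, a toll-like receptor relative of mature B cells, was at 308, 262, 169 and 137 CPM in the MCL-like mice and 17.1, 67.3 and 21.9 in the non-MCL mice (log2 fold change 2.63, SE 0.56, adjusted p = 0.0356), the 1 call of 13 tested with a median of 1.30. Of 24 adhesion and homing genes S1pr3 rose and Selplg, the ligand of P-selectin, fell, at 142, 115, 80.99 and 61.02 CPM in the MCL-like mice and 416, 510.0 and 351 in the non-MCL mice (log2 fold change -2.09, SE 0.38, adjusted p = 0.0212). Ccr2, a chemokine receptor outside the list, rose (74.5, 59.7, 88.4 and 47.2 CPM in the MCL-like mice and 7.26, 8.63 and 8.52 in the non-MCL mice; log2 fold change 3.04, SE 0.40, adjusted p = 0.0072). Cxcr3 had a log2 fold change of 6.64 and did not pass (adjusted p = 0.0729). MCL-like mouse 1, the mesenteric tumour, was at 155 CPM, against 4.29 to 11.9 in the other MCL-like mice and 0 to 0.672 in the non-MCL mice. The log2 fold change was 4.04 or more whichever of the 7 mice was left out.

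**Figure D4:**
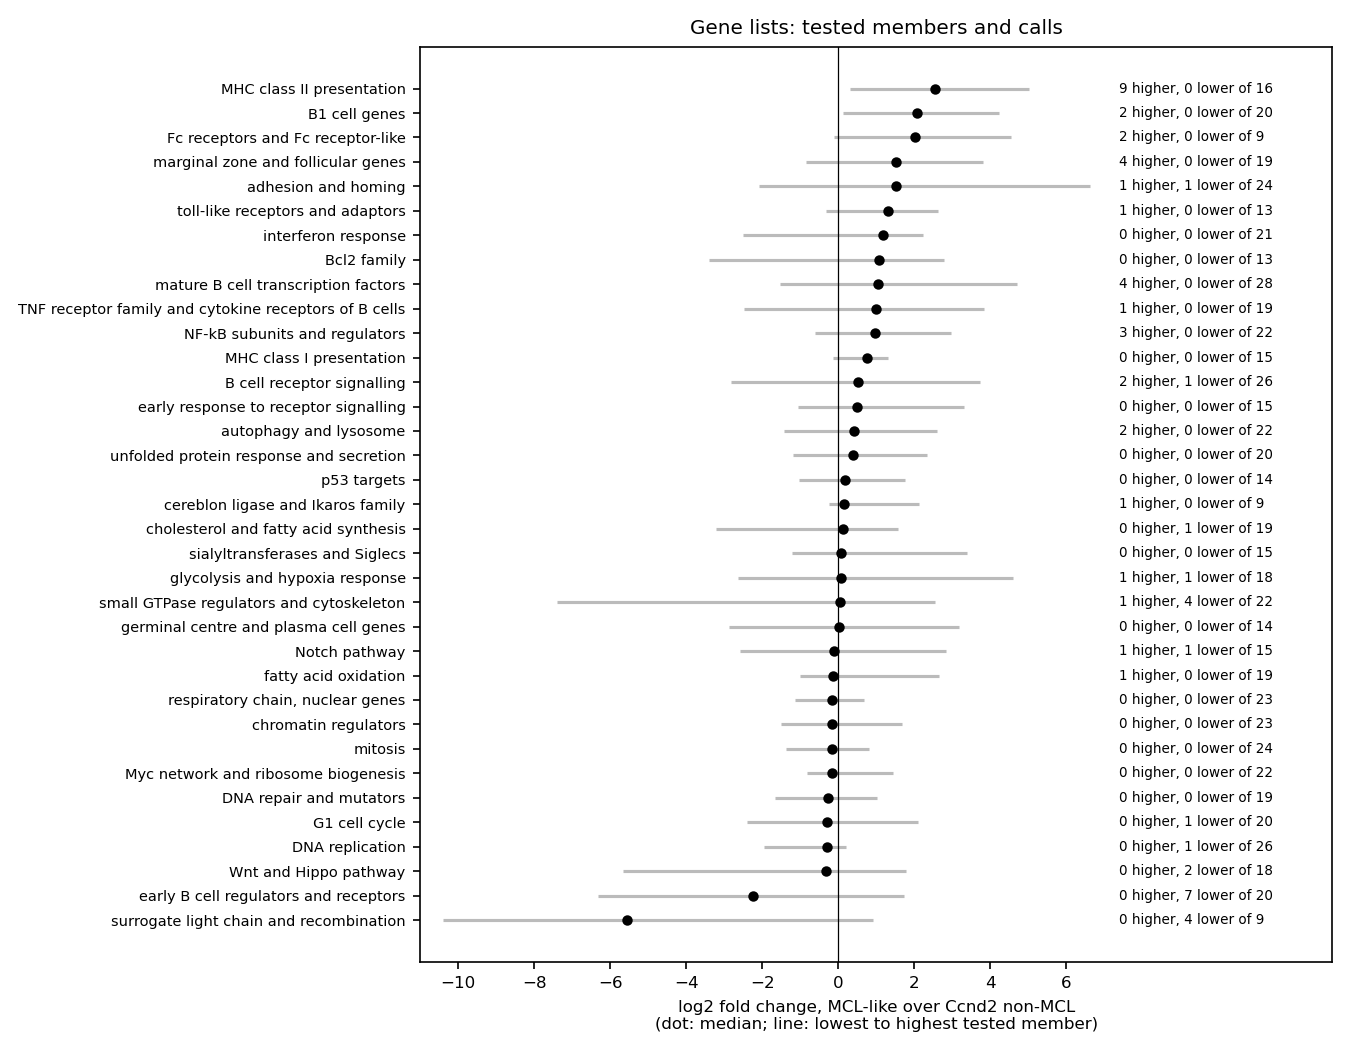
Median (dot) and range from lowest to highest (line) of the log2 fold changes of tested members in 35 gene lists (y axis, lists ordered by median; x axis, MCL-like over non-MCL), with the counts of members called higher and lower at the right. MHC class II (median 2.56, 9 of 16 called higher) is at the top, and surrogate light chain and recombination (median -5.56, 4 of 9 called lower) at the bottom.

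Regulators of small GTPases and of the cytoskeleton changed in both directions. Of 22 tested members 1 rose and 4 fell, and the median was 0.06. Rhoh, a GTPase of blood cells that lacks catalytic activity, was at 36.7, 39.96, 36.9 and 32.9 CPM in the MCL-like mice and 316, 209 and 184 in the non-MCL mice (log2 fold change -2.69, SE 0.34, adjusted p = 0.00712). The MCL-like mice were almost level, and the lowest non-MCL mouse was far above them. Amotl1, a junction protein of the Hippo pathway, was at 2.14, 2.07, 2.37 and 1.43 CPM in the MCL-like mice and 149, 41.2 and 118 in the non-MCL mice (log2 fold change -5.67, SE 0.54, adjusted p = 0.00305). Tiam1, an activator of Rac, was at 0.356, 2.30, 4.07 and 2.86 CPM in the MCL-like mice and 13.8, 59.6 and 41.2 in the non-MCL mice (log2 fold change -3.97, SE 0.70, adjusted p = 0.0186). Uaca was at 0.356, 0, 0.678 and 0.715 CPM in the MCL-like mice and 26.8, 188 and 17.6 in the non-MCL mice (log2 fold change -7.41, SE 1.07, adjusted p = 0.0119). Amotl1 and Lef1 were the 2 calls, both lower, of 18 tested Wnt and Hippo genes. Swap70, an activator of Rac in B cells, was the 1 member that rose, at 124, 160.1, 155 and 225 CPM in the MCL-like mice and 19.95, 27.9 and 37.1 in the non-MCL mice (log2 fold change 2.54, SE 0.39, adjusted p = 0.012). With the p53-only mice in the fit, and among spleen tumours alone, 4 members were called lower and none higher.

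The cell cycle lists held 2 calls, both lower, in 5% of the G1, 3.85% of the DNA replication and 0% of the mitosis genes tested, close to the 3.14% of all genes. Ccnd3, the cyclin D that pre-B cells depend on, fell in the MCL-like mice: it was at 159, 199.8, 242 and 195 CPM in the MCL-like mice and 546, 723 and 1903 in the non-MCL mice (log2 fold change -2.41, SE 0.47, adjusted p = 0.0262) and was the 1 call of 20 tested G1 genes. Ccnd1 was higher without overlap, at 88.7, 18.1, 26.4 and 17.6 CPM in the MCL-like mice and 14.5, 3.45 and 8.29 in the non-MCL mice, and did not pass (log2 fold change 2.11, SE 0.72, adjusted p = 0.148). Ccnd3 lost its call whichever MCL-like mouse was left out (adjusted p = 0.0559 to 0.0779). DNA replication genes had 23 of 26 negative log2 fold changes with a median of -0.30, and Tyms, which makes thymidylate, was the 1 called (31.2 to 61.3 CPM in the MCL-like and 87.1 to 313 in the non-MCL mice; log2 fold change -1.96, SE 0.45, adjusted p = 0.0449). Mitosis genes had 0 of 24 called and a median of -0.17, and Mki67, the proliferation marker, was at 0.62 (adjusted p = 0.474). DNA repair genes (0 of 19 called, median -0.27), chromatin regulators (0 of 23, -0.17), p53 targets (0 of 14, 0.18) and Myc and ribosome biogenesis genes (0 of 22, -0.17) held no call. The nearest was Dnmt1, the maintenance DNA methyltransferase, at 96.6, 136, 88.8 and 81.04 CPM in the MCL-like mice and 241, 218 and 400.3 in the non-MCL mice (log2 fold change -1.51, adjusted p = 0.051).

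Survival genes of the Bcl2 family had 0 of 13 called and a median of 1.07. Bcl2 was at 298, 319, 355 and 884 CPM in the MCL-like mice and 43.5, 132 and 206 in the non-MCL mice, without overlap, and Mcl1 was higher without overlap as well (log2 fold change 1.86, SE 0.60, adjusted p = 0.127, and log2 fold change 1.82, SE 0.51, adjusted p = 0.0805). Bmf, a killer protein of that family, was lower without overlap (log2 fold change -3.41, SE 0.85, adjusted p = 0.0606). Interferon response genes (0 of 21, median 1.17), unfolded protein response genes (0 of 20, 0.39), germinal centre and plasma cell genes (0 of 14, 0.01) and sialyltransferases and Siglecs (0 of 15, 0.09) gave no call.

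Metabolic and autophagy lists had 0 to 2 calls each, from 0% to 11.1% of the genes tested, against 3.14% of all genes. The respiratory chain had 0 of 23 called and a median of -0.16. Fatty acid oxidation had 1 of 19 called with a median of -0.13: Eci1, a mitochondrial isomerase of unsaturated fatty acids, was at 63.1, 35.4, 61.7 and 46.7 CPM in the MCL-like mice and 5.08, 4.89 and 14.1 in the non-MCL mice (log2 fold change 2.65, SE 0.51, adjusted p = 0.0249). Cholesterol and fatty acid synthesis had 1 of 19: Elovl6, which elongates fatty acids, was at 14.6, 3.67, 6.10 and 11.4 CPM in the MCL-like mice and 118, 70.8 and 62.8 in the non-MCL mice (log2 fold change -3.23, SE 0.51, adjusted p = 0.0132). Glycolysis and hypoxia genes had 18 tested and opposite calls within the list. Adm, the vasoactive peptide adrenomedullin, was at 135, 163, 88.1 and 319.9 CPM in the MCL-like mice and 3.63, 3.17 and 14.01 in the non-MCL mice (log2 fold change 4.60, SE 0.71, adjusted p = 0.012), and Vegfa, the vascular growth factor that hypoxia also induces, was at 9.27, 3.67, 5.76 and 8.82 CPM in the MCL-like mice and 65.3, 50.4 and 13.1 in the non-MCL mice (log2 fold change -2.63, SE 0.58, adjusted p = 0.0383). Vegfa lost its call whichever MCL-like mouse was left out (adjusted p = 0.0565 to 0.1078). It kept the call in 9 of 18 settings, and Adm in 17. Autophagy genes had 2 of 22 called higher and a median of 0.41, Dram2 (48.9 to 63.9 CPM in the MCL-like and 13.8 to 17.4 in the non-MCL mice) and Plekhm3 (57.6 to 213 CPM in the MCL-like and 11.6 to 31.2 in the non-MCL mice), with log2 fold change 1.88, SE 0.35, adjusted p = 0.0226 and log2 fold change 2.59, SE 0.54, adjusted p = 0.032. Crbn, the substrate receptor that lenalidomide binds, was the 1 call of 9 tested genes of the cereblon ligase and Ikaros family (57.4, 88.9, 71.5 and 65.6 CPM in the MCL-like mice and 25.4, 17.8 and 12.6 in the non-MCL mice; log2 fold change 1.94, SE 0.40, adjusted p = 0.0308), whereas the Ikaros factors Ikzf1 and Ikzf3 differed by 0.74 and 0.15 (adjusted p = 0.412 and 0.904).

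The called genes with the smallest changes were in none of the lists. Fbxw7, the ubiquitin ligase subunit that marks cyclin E, Myc and Notch for destruction, was at 218, 126, 132 and 124 CPM in the MCL-like mice and 48.98, 61.01 and 45.9 in the non-MCL mice (log2 fold change 1.53, SE 0.36, adjusted p = 0.0481). Gfpt1, the first enzyme of hexosamine synthesis, was at 135, 107, 74.2 and 92.2 CPM in the MCL-like mice and 42.1, 29.9 and 33.4 in the non-MCL mice (log2 fold change 1.54, SE 0.36, adjusted p = 0.048). The 4 other smallest increases were in Ppp1r11, Kdm7a, Dennd4b and Ift140, with log2 fold changes of 1.55 to 1.69. Tsc22d4 had the smallest called decrease, at 76.97, 85.2, 93.2 and 87.2 CPM in the MCL-like mice and 196, 209.8 and 207 in the non-MCL mice (log2 fold change -1.25, SE 0.30, adjusted p = 0.0493), and each group spanned a narrow band. Desi1, a peptidase that removes SUMO, was at 77.7, 63.4, 56.3 and 65.8 CPM in the MCL-like mice and 203, 191 and 194 in the non-MCL mice (log2 fold change -1.58, SE 0.31, adjusted p = 0.026). Nsd2, a histone H3 lysine methyltransferase that is mutated in some mantle cell lymphomas, was at 107, 132, 119 and 125 CPM in the MCL-like mice and 258, 524 and 265 in the non-MCL mice (log2 fold change -1.53, SE 0.36, adjusted p = 0.0494). Coro1c, Qdpr and Cnih1 were between, at -1.51 to -1.57. Their calls were often lost in other settings: Fbxw7 kept its call in 5 of 18, Tsc22d4 in 7 and Nsd2 in 9.

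Called genes at high levels included enzymes and adaptors of lymphocytes. Ptpn1, a phosphatase that acts on JAK kinases, was at 1132, 734, 599 and 659.6 CPM in the MCL-like mice and 242, 151 and 217 in the non-MCL mice (log2 fold change 1.94, SE 0.40, adjusted p = 0.031). Rasgrp2, an activator of the Rap GTPase, was at 197, 91.9, 78.96 and 58.9 CPM in the MCL-like mice and 673, 511 and 624 in the non-MCL mice (log2 fold change -2.50, SE 0.45, adjusted p = 0.0195). Wdfy4, known for antigen cross-presentation, was at 151, 206, 259.9 and 378 CPM in the MCL-like mice and 1402, 767 and 596 in the non-MCL mice (log2 fold change -1.89, SE 0.44, adjusted p = 0.0475). Sae1, a subunit of the enzyme that activates SUMO, was at 217, 294, 216 and 195 CPM in the MCL-like mice and 656, 573 and 848 in the non-MCL mice (log2 fold change -1.59, SE 0.34, adjusted p = 0.0361). Wdfy4, Ptpn1 and Sae1 lost their call whichever MCL-like mouse was left out (adjusted p = 0.05425 to 0.1365, 0.0507 to 0.0748 and 0.0738 to 0.1121). They kept it in 6, 10 and 11 of the 18 settings. Chchd10, a mitochondrial protein, was at 74.5, 77.6, 78.6 and 51.7 CPM in the MCL-like mice and 832, 627 and 347 in the non-MCL mice (log2 fold change -3.09, SE 0.40, adjusted p = 0.0072) and kept its call in all 18 settings, as did Rhoh, Amotl1, Vpreb3 and Lfng, and no other named gene. Rnase12 was at 0.713, 0.689, 2.71 and 2.62 CPM in the MCL-like mice and 1156, 481 and 17.7 in the non-MCL mice, and non-MCL mouse 3 lay far below its group (log2 fold change -8.33, SE 1.29, adjusted p = 0.0155).

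Other genes with the lowest p have roles best known outside B cells. Gfra2, a receptor for the neuronal growth factor neurturin, was at 3.56, 16.3, 6.44 and 13.1 CPM in the MCL-like mice and 377, 701 and 299.9 in the non-MCL mice (log2 fold change -5.52, SE 0.59, adjusted p = 0.00511). Thra, a thyroid hormone receptor, was at 9.98, 10.8, 7.46 and 11.4 CPM in the MCL-like mice and 94.3, 62.5 and 76.98 in the non-MCL mice (log2 fold change -2.97, SE 0.36, adjusted p = 0.00712). Tmem98, Tanc1 and Apbb2 also fell, with log2 fold changes of -5.51, -3.61 and -4.62 and adjusted p = 0.00511, 0.00649 and 0.00712. Abhd6, a lipase of monoacylglycerols, rose (log2 fold change 2.73, SE 0.42, adjusted p = 0.012).

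The genes of chromosomes 14 and 5 were lower as a block in the MCL-like tumours. Over the 9034 genes with a mean of at least 10 CPM over the 7 mice, 51.1% had a negative log2 fold change, 1.87% were called lower and 1.38% higher. On chromosome 14 the share was 82.5% of 315 genes, with a median log2 fold change of -0.73, 19 called lower (6.03%) and 4 higher. Relative to the mean of the 7 mice, the median gene of chromosome 14 was at -0.757, -0.155, -0.279 and -0.0903 in the MCL-like mice and at 0.488, 0.281 and 0.401 in the non-MCL mice, so all 4 lay below all 3. Relative to the median of all genes, that of chromosome 14 was -0.71, and it stayed between -0.755 and -0.592 when each mouse in turn was left out. When the chromosome was split by position into 4 parts of nearly equal gene number, every part was lower (medians of -0.555, -0.873, -0.760 and -0.619), but MCL-like mouse 1 was at 0.028 in the first part and at -0.891, -0.761 and -0.769 in the rest.

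Chromosome 5 had 651 genes, 79.7% of them negative, a median of -0.58, and 23 genes called lower (3.53%) against 8 higher (1.23%). Non-MCL mouse 2 was at 0.619 there and the other non-MCL mice at 0.160 and 0.0633, and the median relative to all genes, -0.558, ranged from -0.667 to -0.352 when each mouse was left out. The 4 near-threshold lower genes Tsc22d4, Coro1c, Qdpr and Nsd2 lie on chromosome 5, and Cnih1 on chromosome 14. Chromosomes 6, 17, 3 and X were shifted the other way. Over all 9034 genes 1.38% were called higher and 1.87% lower. Chromosome 6 had a median of 0.38, 70.9% of genes positive and 13 called higher (3.00%) against 4 lower (0.92%). Chromosome 17, which carries the H2 genes, had a median of 0.34, 69.3% positive and 13 called higher (2.88%) against 4 lower (0.885%). Chromosome 3 had a median of 0.31, 69.9% positive and 16 called higher (3.52%) against 9 lower (1.98%). Chromosome X had a median of 0.29, 70.3% positive and 3 called in each direction (1.14% each), below both shares of all genes. MCL-like mouse 1 was at -0.523 for chromosome 12. Of the 140 mouse-by-chromosome medians 18 exceeded 0.3 in size. DNA copy number was not measured.

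**Figure D5:**
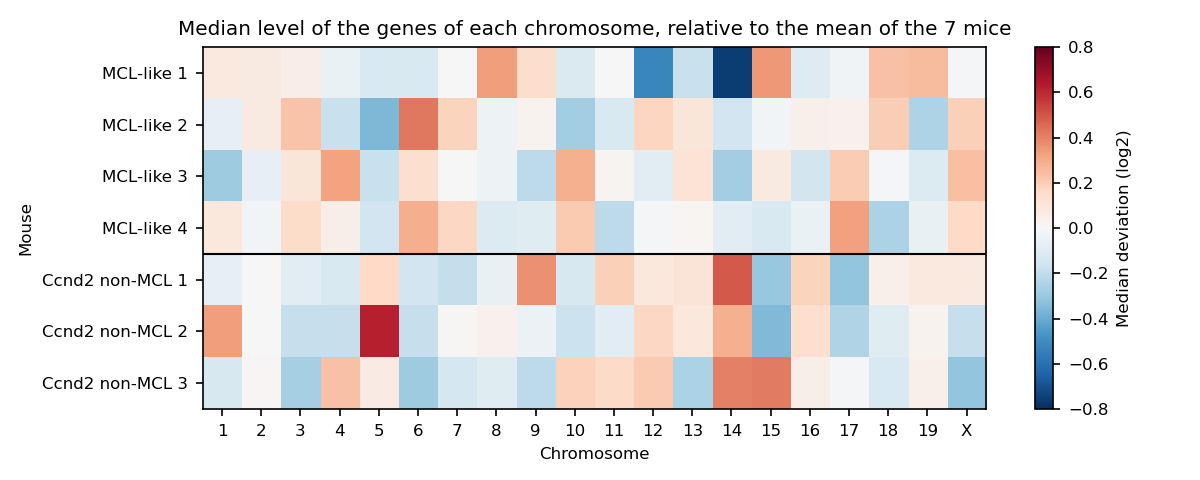
Median deviation of log2 level from the mean of the 7 mice over the expressed genes of each chromosome (x axis) in each mouse (y axis), with red above and blue below that mean. Chromosome 14 is blue in all 4 MCL-like mice, deepest in mouse 1 (-0.757), and red in all 3 non-MCL mice (0.281 to 0.488).

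Transplants in NSG mice, hosts without T, B and NK cells, gave a view of tumours whose primaries were not in the comparison: 1 MCL-like mouse and 1 non-MCL mouse of the same genotype. This sets 1 mouse against another, so no test was made. The called-higher genes were higher in that MCL-like transplant for 114 of 143 (79.7%), against 46.0% of all tested genes, and the called-lower genes were lower for 169 of 228 (74.1%), against 53.9%. In unscaled CPM, Rag1 was at 0 in the MCL-like and 55.2 in the non-MCL transplant, Vpreb3 at 50.8 and 277, Rhoh at 33.6 and 296, Sox5 at 42.7 and 3.37, Spib at 629.5 and 50.3, and Adm at 228 and 0.389. Cd3d was low in both, at 5.84 and 8.94.

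Other members went against the primaries in that pair. H2-Aa was at 1299 in the MCL-like and 1932 in the non-MCL transplant, Cd74 at 965.7 and 1646, and Ciita at 12.7 and 19.2, and for these 3 genes the non-MCL transplant lay within the range of the MCL-like primaries. H2-DMa was nearly level, at 114 and 112. H2-Oa was higher in the MCL-like transplant, at 58.0 and 18.4, as in the primaries. Sp140 (98.0 and 116), Fcrla (170.5 and 258.5) and Ptpn22 (163 and 329.6) were not higher in the MCL-like transplant either. Igll1 was near 0 in both (2.06 and 0.648), and Socs2 (76.9 and 9.07) and Lef1 (48.9 and 1.04) were higher in the MCL-like transplant. Ccnd2 was at 1988 in the MCL-like and 64.9 in the non-MCL transplant.

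The 6 p53-only mice, all labelled non-MCL, also varied widely in the groups that fell or rose most. H2-Aa ran from 24.7 to 2710 unscaled CPM with a median of 342, Rag1 from 1.78 to 360 with a median of 49.0, and Igll1 from 0.576 to 1452. Other genes lay on the non-MCL side in all 6: Rhoh ran from 107 to 327, Sox5 from 0 to 3.74, Malt1 from 18.4 to 46.1 and Adm from 1.37 to 6.56. Fcrla, which rose in the MCL-like primaries, went the other way: it ran from 162.9 to 315.5 in the 6 mice, above the 89.03 to 162.7 of the MCL-like mice. Amotl1 had a median of 5.13 in these mice, nearer the MCL-like than the Ccnd2 non-MCL primaries.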

How the data were processed

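The authors deposited raw counts for each Ensembl gene in each library, and these were used unchanged. Libraries were prepared with a 3' end messenger RNA kit, per the labels' protocols. FastQC, STAR and GRCm38 are named in the submitters' processing notes; their versions, the counter and its strand setting were not found there. Gene names came from GENCODE M21, which matched 52403 of 52636 identifiers.

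The 7 libraries were fitted with edgeR 4.0.16 in R 4.3.3: quasi-likelihood F test, TMM scaling, the default filter on low counts, robust shrinkage and Benjamini-Hochberg adjustment over all tested genes. The threshold was an adjusted p of 0.05, and each SE is the size of the log2 fold change over the root of its F statistic. Each library is 1 mouse. A single value could not go below p = 0.0571 in a two-sided exact permutation test of 4 against 3, so none was run. DESeq2 1.42.0, limma-voom (limma 3.58.1), other scalings and filters, the tumour site, spleen tumours alone, the p53-only mice in the fit and leaving out each mouse were alternatives. The model code was tested on simulated data. Parts of a chromosome hold nearly equal numbers of genes.

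The comparison, the gene lists and the rule for named genes were chosen with earlier results of these data known. The rule took the key genes, the called genes of an ordinary symbol and at least 10 CPM without overlap (per direction 8 by lowest p, 8 by level and 6 nearest to 2-fold), up to 5 members per list by p, and up to 3 per list of other cells by level. Bach2, Bhlhe41, Cd3d, Cd3e, Cd93, Ciita, Ebf1, Eomes, Foxo1, H2-DMb1, H2-Oa, H2-Ob, Ikzf3, Il10, Itgb7, Mki67, Myb, Nfkb2, Rel, Rela, Relb, Rfx5, Rfxank, Rfxap, Tcf3, Trac, Vpreb1 and Zbtb32 were named after their values were seen. A key gene is not reported here. For non-MCL mouse 3 the column name equals the description but not the title, which adds a letter. Titles of the 6 MCL-like transplant libraries say non-MCL; the immunophenotype field was followed. Transplant libraries of 1 primary mouse were summed.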

Additional observations from a re-analysis of the deposited data

Results flagged for a closer look

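For 16 of 124 named genes a single MCL-like mouse lay far from the other 3, with a gap to its nearest neighbour that is a larger share of the group's range than Dixon's 95% critical value allows. The markers Trbc2, Cd28, Lat, Nkg7, Il2rb and Gzma were not among the 124. Chance flags about 1 in 20 groups of normally distributed values, but levels in CPM are skewed and some of the genes were named after their values were seen, so the number of genes is not to be read against that rate. The mouse, the share of the range and its level follow, in CPM. No explanation was tested.

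MCL-like mouse 4 was high for Vpreb1 (0.995 of the range, at 199 CPM), Vpreb2 (1, at 3.58), Igll1 (0.975, at 26.9), Fcrl5 (0.867, at 109), Bcl2 (0.904, at 884) and Cd79a (0.927, at 17.6), and low for Chchd10 (0.846, at 51.7). The surrogate light chain genes Vpreb1, Vpreb2 and Igll1 thus stood out together in this mouse, below the lowest non-MCL mouse for Vpreb1 and Igll1.

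MCL-like mouse 1, the mesenteric tumour, was high for Ccnd1 (0.876, at 88.7 CPM), Bst1 (0.869, at 6.41), Ctss (0.908, at 1594), Malt1 (0.962, at 218), Nfkb2 (0.959, at 127), Cxcr3 (0.9497, at 155) and Fbxw7 (0.915, at 218). The tumour site and the mouse cannot be told apart. MCL-like mouse 3 was high for Fcer2a (0.867, at 19.7 CPM) and Mfhas1 (0.888, at 135).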

How the results depend on the processing

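The report gives 143 genes higher and 228 lower. With the p53-only mice in the fit the counts were 8 and 32, with DESeq2 506 and 676, without a low-count filter 290 and 503, and among spleen tumours alone 25 and 104; limma-voom called 148 lower. Leaving out each mouse gave 29 to 275 higher and 74 to 308 lower: 29 and 149 without non-MCL mouse 1, 51 and 149 without mouse 2, 275 and 308 without mouse 3, and 33 and 74, 37 and 81, and 60 and 155 without MCL-like mice 2, 3 and 4. The causes were not tested. Library size scaling called 99 higher and 258 lower, a share of higher calls of 27.7% instead of 38.5%, and shifted the median of all genes by -0.15.

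The 84 called genes named in the text kept their call in 1072 of 1510 values. They kept their direction in all 1510, which was nearly fixed in advance because the groups did not overlap for these genes. Among 39 uncalled genes 8 changed sign, and Trbc2, Cd28, Lat, Nkg7, Il2rb and Gzma were not examined here. Leaving out each mouse moved Trp53 from -0.68 to 0.62, Cd79b from -0.32 to 0.42, Foxo1 from -0.35 to 0.11, H2-Ob from -0.098 to 0.63 and Ikzf3 from -0.15 to 0.64. Cd79b was -0.11 with library size scaling. Among spleen tumours Foxo1 was 0.11, Pax5 0.11, Rfx5 -0.088 and Tcf3 0.074. Depth limits low genes most. No paired analysis was possible because mouse numbers follow accession order and pair no mice.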
